A study of Mus musculus with 6 samples.

Results

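9 genes of vitamin A handling were examined in RNA-seq of mouse duodenal epithelium, chosen by symbol for intestinal uptake, esterification and oxidation of retinol and carotenoids. All 9 were present among the 22611 genes with an FPKM value, a count of fragments corrected for transcript length and for the size of the library. The libraries came from the duodenal epithelium of 3 WT mice and 3 *Esrra*-/- littermates (labelled ESRRAKO), with each library from a single mouse, and all had eaten a high-fat diet for about 8 weeks. *Esrra* encodes estrogen-related receptor alpha, an orphan nuclear receptor, and the null allele was carried in the germline, so that it was lost in all tissues and not in the intestine alone. Epithelium was released with EDTA and mechanical force from the first part of the small intestine. Both sexes were used. Age at collection is not given in the sources used here, and neither is whether the sequenced mice, WT included, carried the *Villin-CreERT2* transgene or floxed *Esrra* alleles of the breeding scheme.

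Dietary vitamin A reaches the enterocyte as retinol, released from retinyl esters, or as provitamin A carotenoids such as beta-carotene. *Bcmo1* encodes the oxygenase that cleaves beta-carotene to retinal, and *Isx* a gut homeobox factor, induced by retinoic acid, that represses *Bcmo1* and the carotenoid and lipid receptor gene *Scarb1*. Retinol in the enterocyte is held by the cellular retinol-binding protein RBP2, esterified by LRAT and exported in chylomicrons. RDH7 and RDH10 are retinol dehydrogenases, ALDH1A1 oxidizes retinal to retinoic acid, CRABP2 delivers retinoic acid to its receptors, and RBP4, made mainly in liver, carries retinol in plasma.

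Promoter windows from 250 bases before to 50 bases after the annotated start were matched by symbol for 7 of the 9 genes (RefSeq, build GRCm38.p6, 10 windows); *Rdh10* and *Crabp2* had none. The windows were searched on both strands for AGGTCA, the nuclear receptor core, for AAGGTCA, for TCAAGGTCA, the extended element bound by estrogen-related receptors, and for AGGTCANAGGTCA, a direct repeat of the core with a 1-base spacer; these motifs overlap, and each longer one contains the core. The core was found in 3 of the 10 windows, 1 each of *Rbp2*, *Bcmo1* and *Rdh7*, against 16.3% of all 32851 windows. AAGGTCA was found in the windows of *Rbp2* and *Bcmo1* (4.72% of all windows). TCAAGGTCA was found in 0 of the 10 windows (0.423%), and the direct repeat in the *Bcmo1* window (0.0396%, 13 windows). The 3 windows that hold the core are shown 5′ to 3′ on the strand of the gene, with the matched letters in capitals. Every match lay on the opposite strand, so the capitals read as the reverse complement of the motif.
Rbp2, chr9:98490287-98490586, plus strand: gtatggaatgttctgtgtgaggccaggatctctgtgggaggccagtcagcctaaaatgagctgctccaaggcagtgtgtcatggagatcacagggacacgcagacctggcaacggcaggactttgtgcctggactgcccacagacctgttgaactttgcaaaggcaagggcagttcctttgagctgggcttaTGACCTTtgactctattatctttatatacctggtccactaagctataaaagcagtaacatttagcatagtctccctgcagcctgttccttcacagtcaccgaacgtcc
Bcmo1, chr8:117095615-117095914, plus strand: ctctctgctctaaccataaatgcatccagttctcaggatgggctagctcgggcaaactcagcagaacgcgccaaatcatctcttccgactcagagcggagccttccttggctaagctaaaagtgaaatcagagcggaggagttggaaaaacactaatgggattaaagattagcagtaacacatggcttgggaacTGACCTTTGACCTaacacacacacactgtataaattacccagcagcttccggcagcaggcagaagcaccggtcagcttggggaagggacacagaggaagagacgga
Rdh7, chr10:127889198-127889497, minus strand, the first of 2 windows: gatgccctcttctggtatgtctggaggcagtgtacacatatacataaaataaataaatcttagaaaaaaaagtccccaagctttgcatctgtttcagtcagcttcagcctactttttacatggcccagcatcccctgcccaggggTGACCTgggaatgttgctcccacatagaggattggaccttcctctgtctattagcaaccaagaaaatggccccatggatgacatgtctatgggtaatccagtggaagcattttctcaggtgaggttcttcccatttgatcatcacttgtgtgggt
In *Rbp2* the core began 58 bases before the start. In *Bcmo1* the cores began 56 and 49 bases before it, and in *Rdh7* the core began 105 bases before it. A match is a description of the letters, not of binding.

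*Esrra* itself stood at 49.4, 73.5 and 104 FPKM in the WT libraries, given throughout in the order of their replicate numbers, against 10.4, 9.42 and 8.72 FPKM in *Esrra*-/-, a log2 fold change of −2.92 (SE 0.26, limma adjusted p = 0.0215). The summed FPKM of 18 villus enterocyte markers, led by *Apoa4*, ran from 43189 to 70348 in WT and from 52827 to 74744 in *Esrra*-/-, with 0 of 18 called in either direction, 15 of 18 above 0 and a median log2 fold change of 0.20. Of the 2 duodenal factors, *Gata4* ran from 71.2 to 97.9 FPKM over the 6 libraries, and *Pdx1* was low, from 0.145 to 1.31 FPKM. Of other cell types, 8 immune genes, led by *Gzma*, summed to 122 to 195 FPKM in WT and 93.6 to 225 in *Esrra*-/-, with 0 called. Other summed levels were 0.0302 to 0.138 FPKM in WT and 0 to 1.51 in *Esrra*-/- for 5 adipocyte genes (*Adipoq* and *Lep* at 0, the highest *Fabp4*), 2.38 to 3.57 and 3.54 to 3.56 for 7 pancreatic acinar genes (*Prss2*, *Cpa1*, *Amy2a5* and *Pnlip* at 0, nearly all of the sum *Cela1*), and 2.37 to 4.28 and 2.44 to 7.04 for 8 mesenchymal genes. Among epithelial markers, 4 of 6 Paneth genes were called lower in *Esrra*-/-, against 3.28% of all genes tested, and all 6 were below 0, with a median log2 fold change of −1.43 and sums of 9802 to 19874 in WT and 1917 to 8409 in *Esrra*-/-. For crypt genes 2 of 12 were called lower and 11 of 12 were below 0, with a median of −0.64 against 0.03 over all genes, and their sums, led by *Olfm4*, overlapped at 186 to 325 and 88.0 to 239. For goblet genes 1 of 6 was called lower and for enteroendocrine genes 0 of 7. The part of these markers in the results on vitamin A genes was not tested. Replicate 3 of each genotype lacked Y-linked transcripts (summed FPKM of 4 genes 0.0487 and 0.222), whereas the other 4 libraries held 27.3 to 46.7. In bulk RNA, fewer cells of a type and less RNA per cell cannot be told apart.

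A gene was called when limma, on log2(FPKM + 0.1) over the 10596 genes with a mean FPKM above 1, gave p below 0.05 before adjustment and an absolute log2 fold change over 0.58 in *Esrra*-/- against WT. By this rule 348 genes were called lower, 3.28% of those tested, and 143 were called higher, 1.35%. Of the 9 vitamin A genes 8 were tested, since *Crabp2* did not pass the filter. Of the 8, 1 gene, *Rdh7*, was called higher and 0 were called lower, and at an adjusted p under 0.05 the count was 0 in both directions. The log2 fold changes were above 0 for 5 and below 0 for 3, with a median of 0.17, against 0.03 over all genes tested and 0.20 over the villus markers. The genotypes overlapped in all 8. Among all genes tested, 8.45% had every *Esrra*-/- library above every WT library and 9.14% had every one below.

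**Figure D1:**
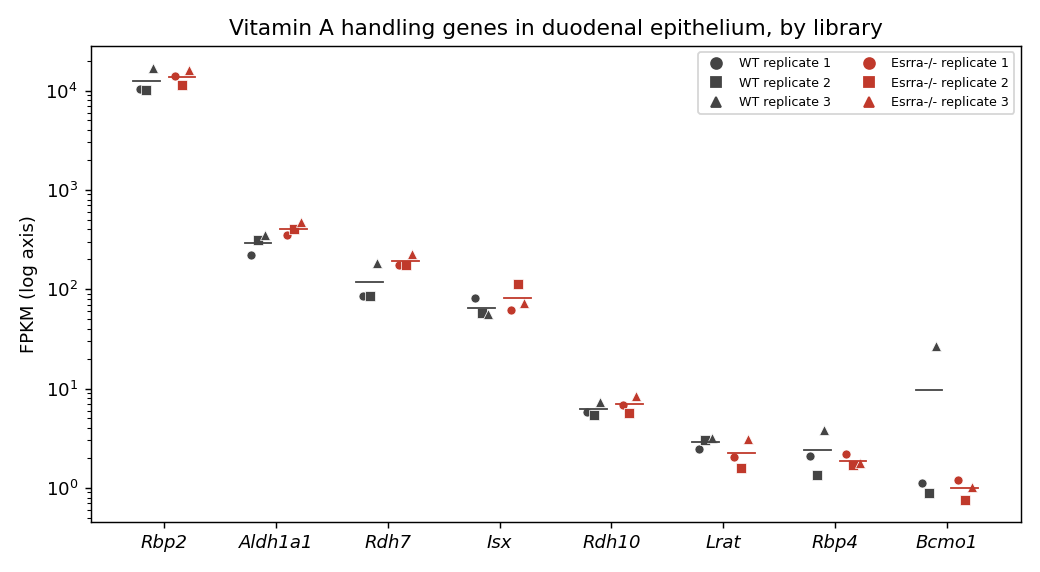
FPKM (log axis) of the 8 tested vitamin A genes in each library, WT in grey and *Esrra*-/- in red, with marker shapes for replicates 1 to 3 and short lines at the genotype means. The genes span from about the top of the transcriptome (*Rbp2*) down to about 1 FPKM (*Bcmo1*), and the 27.0 FPKM of WT replicate 3 stands alone above the other 5 *Bcmo1* values.

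The 9 genes differed far more among themselves than between genotypes. *Rbp2* was the most abundant, among the 6th to 11th highest of all 22611 genes in every library, and its mean FPKM was 42.7-fold (WT) and 33.9-fold (*Esrra*-/-) that of *Aldh1a1*, the next. In both genotypes *Aldh1a1*, *Rdh7* and *Isx* followed in that order, and within a genotype the ranges of these neighbours did not overlap. *Rdh10* stood above *Lrat* with no overlap of ranges in either genotype, whereas *Lrat* and *Rbp4* overlapped in both. *Bcmo1* came just above *Rdh10* by mean in WT, a place that rested on replicate 3, and below *Rbp4* in *Esrra*-/-. *Crabp2* was last.

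Of the retinol oxidation genes, *Rdh7* was the one called. *Rdh7* (ENSMUSG00000040134.7, mm9 chr10:127321084-127326095, minus strand) encodes a microsomal short-chain dehydrogenase that accepts retinol. It had 86.3, 85.9 and 183 FPKM in the WT libraries, against 176, 176 and 226 FPKM in *Esrra*-/-. WT replicates 1 and 2 were the low libraries, and WT replicate 3 lay above *Esrra*-/- replicates 1 and 2, so the genotypes overlapped. The means were 118 ± 56.0 and 193 ± 28.7 (SD, n = 3 each). The fitted log2 fold change was 0.79 (SE 0.31), a 1.73-fold difference on the log2(FPKM + 0.1) scale, with a limma p of 0.0370 before and 0.427 after adjustment. The two-sided exact permutation test gave p = 0.3, where 0.1 is the smallest that 3 against 3 allows.

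The *Rdh7* difference was not even across the libraries. In the 4 libraries with Y-linked transcripts the mean was 86.1 FPKM in WT and 176 FPKM in *Esrra*-/-, a ratio of 2.04 (n = 2 each), and limma on those 4 alone gave a log2 fold change of 1.03 (SE 0.11, adjusted p = 0.190). In the 2 libraries without them the values were 183 and 226 FPKM, a ratio of 1.23 with no replicate. Whether the ratio differs between these sets was not tested. The call was lost when any library other than WT replicate 3 was left out, with log2 fold changes of 0.60 to 0.85, and it was 1.15 (SE 0.17, limma adjusted p = 0.199) without WT replicate 3. Of the distinct 31-base words of *Rdh7* transcripts, 17.7% also occur in 6 other genes, of which *Rdh1* shares the most, so reads could be divided between them. *Rdh1* ran from 1.73 to 2.24 FPKM over all libraries, with a log2 fold change of −0.08 (SE 0.20, limma adjusted p = 0.910). The part of shared words in these values was not tested. *Rdh9*, a neighbouring member of the same family, was 22.4, 24.8 and 30.4 FPKM in WT and 29.3, 31.6 and 47.0 FPKM in *Esrra*-/-, with a log2 fold change of 0.45 (SE 0.21, limma adjusted p = 0.500). *Rdh5* and *Rdh16*, also on chromosome 10, had log2 fold changes of −0.09 (SE 0.18) and 0.19 (SE 0.21), with limma adjusted p of 0.880 and 0.767. *Rdh1*, *Rdh5*, *Rdh9* and *Rdh16* were named after their values were seen.

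*Aldh1a1* (ENSMUSG00000053279.6, mm9 chr19:20676451-20717952, plus strand), the next step of the pathway, had 219, 310 and 355 FPKM in WT and 350.0, 400.0 and 475 FPKM in *Esrra*-/-. WT replicate 3 lay just above the lowest *Esrra*-/- library, the one point of overlap. The means of 295 ± 68.8 and 408 ± 63.0 FPKM (SD, n = 3 each) gave a log2 fold change of 0.49 (SE 0.23, limma p = 0.0693, adjusted p = 0.500, exact permutation p = 0.2), which met neither part of the call rule. The ratio was 1.42 in the libraries with Y-linked transcripts and 1.34 in the others. Of its 31-base words, 13.9% are shared with *Aldh1a7*. *Rdh10* (ENSMUSG00000025921.7, mm9 chr1:16095855-16123815, plus strand) stood far lower, at 5.81, 5.36 and 7.29 FPKM in WT and 6.87, 5.70 and 8.47 FPKM in *Esrra*-/-. The ranges overlapped through most of their length, and the log2 fold change was 0.18 (SE 0.19, limma adjusted p = 0.758). *Crabp2* (ENSMUSG00000004885.5, mm9 chr3:87752588-87757298, plus strand) was listed at 0 in 5 libraries and at 0.166 FPKM in WT replicate 3.

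**Figure D2:**
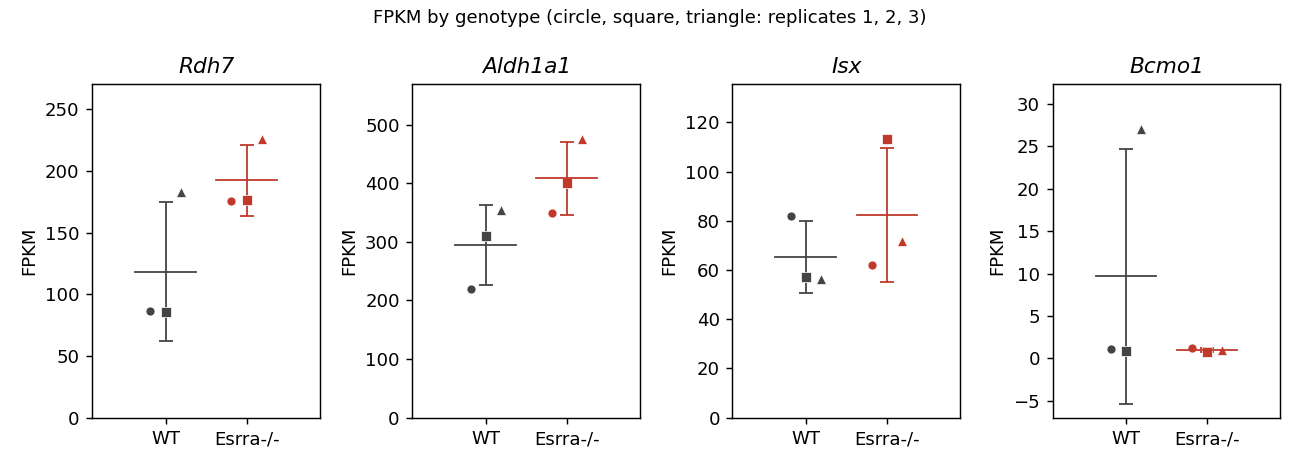
FPKM of *Rdh7*, *Aldh1a1*, *Isx* and *Bcmo1* by genotype, one point per library with mean and SD (n = 3). *Rdh7* and *Aldh1a1* are higher on average in *Esrra*-/-, 193 against 118 and 408 against 295 FPKM, with overlap, and the WT spread of *Bcmo1* comes from 1 library.

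Of the 9 genes, those for retinol binding and esterification, *Rbp2*, *Lrat* and *Rbp4*, were called in neither direction. *Rbp2* (ENSMUSG00000032454.3, mm9 chr9:98390956-98410190, plus strand) had 10455, 10224 and 17039 FPKM in WT and 14104, 11262 and 16118 FPKM in *Esrra*-/-. The highest library of all was WT replicate 3 and the lowest WT replicate 2, so the *Esrra*-/- values lay inside the WT range. The log2 fold change was 0.16 (SE 0.37, limma adjusted p = 0.898). *Lrat* (ENSMUSG00000028003.6, mm9 chr3:82696501-82707895, minus strand) had 2.44, 3.06 and 3.15 FPKM in WT and 2.03, 1.57 and 3.09 FPKM in *Esrra*-/-. *Esrra*-/- replicate 3 alone lay within the WT range. The log2 fold change was −0.40 (SE 0.26, limma adjusted p = 0.613) and −0.65 (SE 0.23, adjusted p = 0.503), past the call rule, without that library. *Rbp4* (ENSMUSG00000024990.6, mm9 chr19:38191110-38199811, minus strand) had 2.08, 1.34 and 3.84 FPKM in WT and 2.19, 1.69 and 1.76 FPKM in *Esrra*-/-. Its log2 fold change of −0.23 (SE 0.36, limma adjusted p = 0.846) turned to 0.15 without WT replicate 3, the highest library.

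The mean of *Bcmo1* in WT rested on a single library. *Bcmo1*, now named *Bco1* (ENSMUSG00000031845.8, mm9 chr8:119619754-119657397, plus strand), had 1.12, 0.892 and 27.0 FPKM in WT and 1.20, 0.754 and 1.03 FPKM in *Esrra*-/-. WT replicate 3 was 22.4-fold above the next highest library, and the other 5 lay together. The log2 fold change of −1.57 (SE 1.16, limma adjusted p = 0.654) became −0.03 without that library. Genes at least 10-fold above all other libraries were rare, 0 to 3 per library among those tested and 2 in WT replicate 3. For the 8 other genes within 250 kb of *Bcmo1* that the table holds, WT replicate 3 was 0.366 to 1.50 times the highest of the other libraries, and none of them overlaps *Bcmo1*. Of the 31-base words of *Bcmo1* transcripts, 2.55% also occur in other genes, 152 in number. No other library repeats the 27.0 FPKM, and the cause of that value was not tested. *Bco2*, another carotenoid-cleaving oxygenase from the pathway lists, named after its values were seen, had 43.5, 40.1 and 57.8 FPKM in WT and 47.4, 55.2 and 67.2 FPKM in *Esrra*-/-. The genotypes overlapped, and the log2 fold change was 0.27 (SE 0.19, limma adjusted p = 0.648).

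*Isx* (ENSMUSG00000031621.3, mm9 chr8:77396618-77417405, plus strand), the repressor of *Bcmo1*, was lowest in that same library, by a small margin. Its FPKM was 82.1, 57.1 and 56.4 in WT and 62.1, 113 and 71.9 in *Esrra*-/-. WT replicates 2 and 3 were nearly equal, the genotypes overlapped, and the relation of *Isx* to the *Bcmo1* value was not tested. The log2 fold change was 0.31 (SE 0.26, limma adjusted p = 0.697). *Scarb1*, the other target, was 5.97, 2.12 and 38.2 FPKM in WT and 16.6, 10.6 and 36.3 FPKM in *Esrra*-/-, high in both replicates 3, which lack Y-linked transcripts. Its log2 fold change was 1.22 (SE 0.97, limma adjusted p = 0.684), and 2.35 (SE 0.60, adjusted p = 0.375), past the call rule, without WT replicate 3. *Scarb1* was named after its values were seen.

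Across the 6 libraries the genes whose log2(FPKM + 0.1) followed *Isx* most closely were *Psmb9* (Pearson r = 0.986), *H2-D1* (r = 0.973) and *N4bp1* (r = 0.961). Among those closest to *Rbp2* were *Ndfip2* (r = 0.998) and *1190003J15Rik* (r = 0.994). These values describe the same 6 libraries and share their depth and scaling.

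*Rbp2*, *Rdh7* and the villus markers all varied with the library, so the vitamin A genes were also set against the 18 summed villus markers, a scale chosen after the values were seen and one whose own markers had a median log2 fold change of 0.20. The divisor was the sum and not the median marker, at 45897, 43189 and 70348 FPKM in WT and 65777, 52827 and 74744 FPKM in *Esrra*-/-. A larger sum lowers the scaled value of every gene. Per 1000 FPKM of villus markers, *Rdh7* was 1.88, 1.99 and 2.60 FPKM in WT and 2.67, 3.34 and 3.02 FPKM in *Esrra*-/-. On this scale all *Esrra*-/- libraries lay above all WT libraries, as they did for 0.481% of genes tested. *Rbp2* was 228, 237 and 242 in WT and 214, 213 and 216 in *Esrra*-/-, and *Lrat* was 0.0533, 0.0707 and 0.0448 in WT and 0.0309, 0.0297 and 0.0413 in *Esrra*-/-. Both lay wholly lower in *Esrra*-/-, as did *Bcmo1* and 11.2% of all genes tested. *Rbp4*, *Isx*, *Rdh10* and *Aldh1a1* overlapped. The part of the markers themselves in these differences was not tested.

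**Figure D3:**
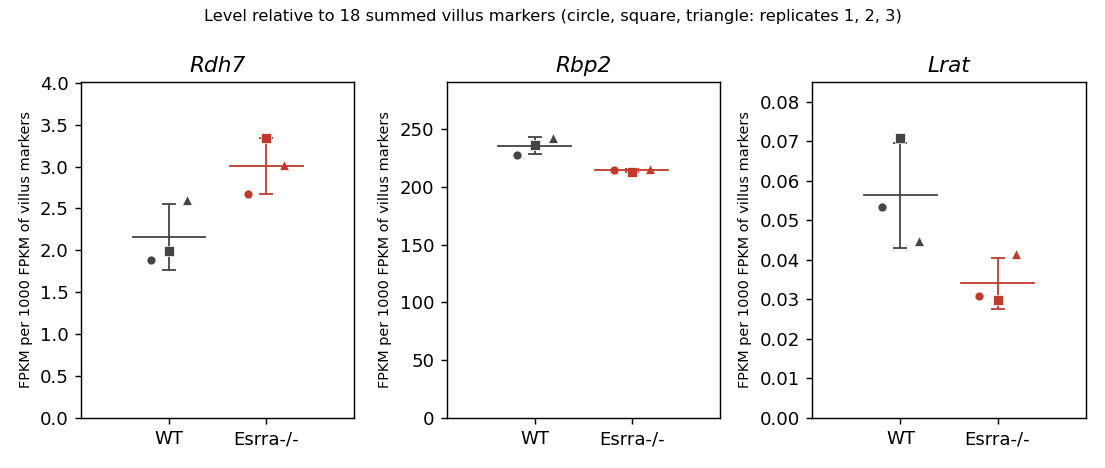
FPKM of *Rdh7*, *Rbp2* and *Lrat* per 1000 FPKM of 18 summed villus enterocyte markers, one point per library with mean and SD (n = 3). *Rdh7* lies higher in every *Esrra*-/- library (2.67 to 3.34) than in any WT library (1.88 to 2.60), and *Rbp2* and *Lrat* lie lower.

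Other genes of the pathway were read from lists of 53 symbols, of which 52 were in the table and 34 passed the filter; *Stra6l* was not analysed here. Of the 34, 3 were called lower and 0 higher, against 3.28% and 1.35% of all genes. Of the log2 fold changes, 15 were below 0 and 19 above. Among the 3, *Ttr* passed the filter through its WT values. With FPKM above 1 in all 6 libraries, *Ttr* was not tested and 2 pathway genes were called lower, against 315 of 9727 among all genes. All 3 genes called with the filter on the mean were binding proteins, the only ones of the 6 listed that passed it. At an adjusted p under 0.05 the count of pathway genes was 0. That list leaves out the binding proteins among the 9 genes. Of those, *Rbp2* (0.16, SE 0.37, limma adjusted p = 0.898) and *Rbp4* (−0.23, SE 0.36, adjusted p = 0.846) were tested and not called.

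*Rbp7*, a cellular retinol-binding protein, was 16.6, 16.9 and 25.3 FPKM in WT and 9.25, 14.3 and 10.8 FPKM in *Esrra*-/-. Every *Esrra*-/- library was below every WT library, at means of 19.6 ± 4.93 and 11.4 ± 2.57 (SD, n = 3 each). The log2 fold change was −0.76 (SE 0.22, limma p = 0.0103, adjusted p = 0.331, exact permutation p = 0.1, the smallest possible). *Ttr*, transthyretin, the plasma partner of RBP4, was lower without overlap at a low level, 1.78 ± 0.725 against 0.744 ± 0.253 FPKM (log2 fold change −1.12, SE 0.42, limma adjusted p = 0.410). The mean of *Ttr* over all libraries was 1.26 FPKM, and its *Esrra*-/- values of 0.474, 0.974 and 0.785 all lay below 1. It thus passed the filter through its WT values, so for *Ttr* the filter and the call are not independent. *Fabp5*, a fatty acid-binding protein that also binds retinoic acid, was 5.58, 3.28 and 6.67 FPKM in WT and 3.63, 2.72 and 2.89 FPKM in *Esrra*-/- (log2 fold change −0.68, SE 0.27, limma adjusted p = 0.429), with overlap. *Ces1e*, a carboxylesterase with activity on retinyl esters, had a p under 0.05 and no overlap, 10.5 ± 1.99 against 7.32 ± 1.32 FPKM, but its log2 fold change of −0.52 (SE 0.19, limma adjusted p = 0.405) did not reach the call.

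The calls of the binding proteins depended on the libraries and, for *Fabp5*, also on the processing. Without WT replicate 3 none of the 3 was called, at log2 fold changes of −0.57 for *Rbp7*, −1.03 for *Ttr* and −0.47 for *Fabp5* (limma adjusted p = 0.414, 0.453 and 0.488), and none in the 4 libraries with Y-linked transcripts, at −0.54, −1.09 and −0.43 (adjusted p = 0.466, 0.519 and 0.612). *Rbp7* was called in 13 of 15 alternatives. *Ttr* was called in 10 of 14, and was also lost without WT replicate 2 (−0.86) or *Esrra*-/- replicate 1 (−0.87). It was not tested with FPKM above 1 in all 6 libraries, and a pseudocount of 1 brought it to −0.65, still called. *Fabp5* was called in 8 of 15, and was also lost without WT replicate 1 (−0.60), *Esrra*-/- replicate 2 (−0.60) or *Esrra*-/- replicate 3 (−0.64), with a pseudocount of 1 (−0.56) and under quantile normalization (−0.63, limma adjusted p = 0.454).

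In the other lists no gene was called. The 7 tested genes of uptake and cleavage had a median log2 fold change of 0.27. Their most abundant gene, *Mttp*, which loads lipid into chylomicrons, ran from 1063 to 1256 FPKM in WT and from 1427 to 1656 FPKM in *Esrra*-/-, without overlap (log2 fold change 0.34, SE 0.20, limma adjusted p = 0.574). The 15 oxidoreductases had a median of 0.05, with 8 above 0 and 7 below, and *Adh1*, the most abundant, was highest in both replicates 3, at 1615 FPKM in WT and 1103 FPKM in *Esrra*-/-. The 5 ester genes had a median of 0.01 and the 3 receptors 0.17, led by *Dgat1* (mean 513 FPKM) and *Rxra* (mean 36.2 FPKM). *Aldh1a7* (mean 23.4 FPKM) was the one tested gene of retinal oxidation beside *Aldh1a1*, at 0.05. The 3 retinoic acid breakdown enzymes were not tested, the highest being *Cyp26a1* at a mean of 0.0230 FPKM.

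**Figure D4:**
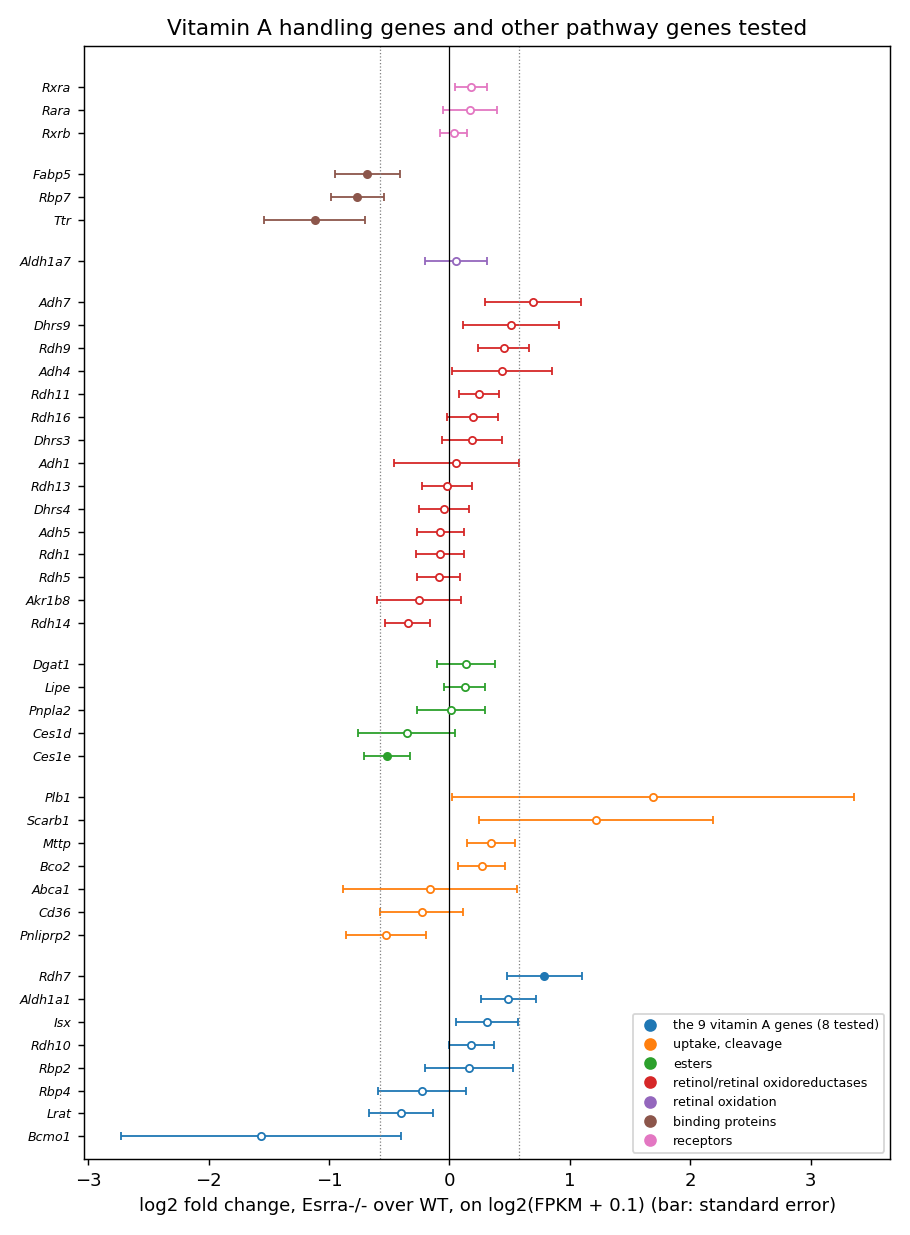
Log2 fold change in *Esrra*-/- over WT, with its standard error, of the 8 tested vitamin A genes and the 34 other pathway genes tested, coloured by list, with filled points for an unadjusted limma p under 0.05 and dotted lines at 0.58 either side. *Rdh7* (0.79) is the filled point on the higher side, and *Rbp7* (−0.76), *Fabp5* (−0.68), *Ttr* (−1.12) and *Ces1e* (−0.52) are those on the lower side.

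**Figure D5:**
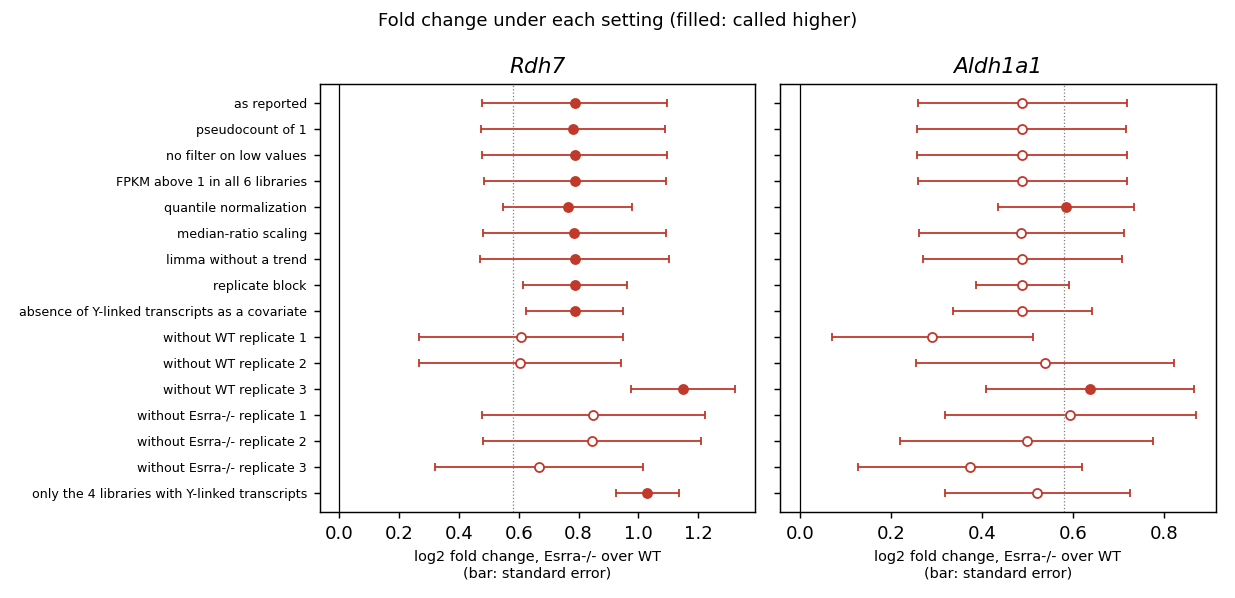
Log2 fold change of *Rdh7* and *Aldh1a1* in *Esrra*-/- over WT with its standard error under each way of processing, filled where the gene is called higher. *Rdh7* runs from 0.60 to 1.15 and *Aldh1a1* from 0.29 to 0.64, above 0 throughout.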

How the data were processed

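The libraries were from duodenal epithelium of 3 mice per genotype, WT and *Esrra*-/-. Per the paper's methods and the submitters' processing notes, reads were checked with fastQC (0.11.3), aligned to mm9 with Kallisto (2.1.0, as stated), and FPKM values were calculated with DESeq2 (2.2.1, as stated). The annotation is not given in the sources used here. The deposited FPKM of 22611 genes was used; the authors' own table of their comparison (means, fold changes and p-values) was not. FPKM gives no read depth, so counting error is unknown, and the spread between mice is the error used.

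Here log2(FPKM + 0.1) of the 10596 genes with mean FPKM above 1 was fitted with limma 3.58.1 (R 4.3.3; lmFit, eBayes with trend, Benjamini-Hochberg over all genes tested), without covariates. The call rule was p below 0.05 before adjustment with an absolute log2 fold change over 0.58. Single genes were also tested by two-sided exact permutation (20 arrangements). Scripts were tested on simulated data. Gene positions are from GENCODE M1 on mm9 (22586 of 22611 symbols matched), and promoters from RefSeq on GRCm38.p6. The 9 genes and the pathway and marker lists were chosen with earlier results of these data known. Genes named were the 9, pathway genes with an unadjusted p under 0.05, the most abundant gene of each pathway list, the 3 genes closest to *Isx* and to *Rbp2* by Pearson r, *Esrra*, and markers at 0 or most abundant; others are marked as chosen after their values were seen, and 1 gene that the rule names is not reported here. Alternatives were a pseudocount of 1, no filter, a filter of FPKM above 1 in each of the 6 libraries, median-ratio scaling, quantile normalization, no trend, a replicate block, a covariate for libraries lacking Y-linked transcripts, each library left out, an adjusted p under 0.05 and, added after seeing the data, only the 4 libraries with Y-linked transcripts.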

Additional observations from a re-analysis of the deposited data

How the results depend on the processing

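*Rdh7* passed the call in 10 of 15 alternatives; in 5 of the 15 (no filter, FPKM above 1 in all libraries, no trend, replicate block, covariate) the log2 fold change of 0.79 is fixed by the design and only its error can move. Leaving out 1 library gave 0.60 to 1.15 for *Rdh7*, 0.29 to 0.64 for *Aldh1a1* (called without WT replicate 3) and −0.65 to −0.19 for *Lrat* (called without *Esrra*-/- replicate 3), with 0 to 2 of the 9 genes called higher and 0 to 1 lower, 0 to 4 pathway genes lower and 0 to 2 higher, and 252 to 533 of all genes lower and 143 to 214 higher. The lowest pathway count came without WT replicate 3, and the 533 without *Esrra*-/- replicate 2. With an adjusted p under 0.05 the limma counts were 0 vitamin A genes higher, 0 pathway genes lower, and 2 lower and 2 higher among all genes, where 1144 had an unadjusted p under 0.05. Without the filter 528 genes were lower and 277 higher. Quantile normalization called 2 of the 9 genes higher, adding *Aldh1a1* at 0.58. With a covariate for the libraries lacking Y-linked transcripts, 1 pathway gene, *Adh7*, was called higher. With only the 4 libraries that hold Y-linked transcripts, 0 pathway genes were lower and 2 higher, *Adh7* and *Scarb1*. The cause of these shifts was not tested. *Bcmo1* could not be tested in that last fit or with FPKM above 1 in all libraries.

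With the replicate number as a block, *Rdh7* kept 0.79 (SE 0.17, limma adjusted p = 0.118), 1 pathway gene, *Scarb1*, was called higher at 1.22, and 441 genes were lower and 192 higher. Same-numbered libraries correlated in their deviations at 0.0116, 0.263 and 0.376, and WT replicate 1 correlated best with *Esrra*-/- replicate 2, so the numbers were not taken to pair the mice. The design has 3 libraries per genotype, and FPKM carries no depth, so low genes such as *Crabp2*, *Lrat* and *Rbp4* have an unknown counting error.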

Other observations

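*Awat2*, an acyltransferase able to esterify retinol, fell under the filter on low values and was named after its values were seen. It was 0.323, 0.261 and 0.446 FPKM in WT and 0.0604, 0.105 and 0.104 FPKM in *Esrra*-/-, without overlap. Without the filter its log2 fold change was −1.21 (SE 0.26, limma adjusted p = 0.337), on a log2(FPKM + 0.1) scale that understates changes of low genes. *Plb1*, a brush border phospholipase B that hydrolyses retinyl esters, also named after its values were seen, varied widely within both genotypes, at 0.421, 22.2 and 0.260 FPKM in WT and 16.9, 7.77 and 0.949 FPKM in *Esrra*-/-. Its log2 fold change was 1.69 (SE 1.67, limma adjusted p = 0.742), and 3.58 (SE 1.08, adjusted p = 0.590), past the call rule, without WT replicate 2, the highest library.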
